A study of Mus musculus with 24 samples.

Results

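The transcripts described here are those of the early growth response factors Egr1, Egr2 and Egr3 and of the NGFI-A binding corepressors Nab1 and Nab2. They were taken as the 5 genes whose symbol equals 1 of these names, of 24273 genes in the table, and all 5 passed the filter on low values that left 13901 genes for testing. Their mRNA was measured by RNA-seq in mouse bone marrow-derived macrophages (BMDMs) of the C57BL/6 strain, either left untreated (0 h) or stimulated for 0.5, 1 or 2 h with 100 ng/ml LPS, the bacterial lipopolysaccharide that activates TLR4. Each of the 8 groups had 3 libraries. One genotype, labelled LysM-Cre, carried the Cre recombinase placed at the lysozyme locus Lyz2 and served as the control, and the study's text adds for these controls a floxed Fos allele over a wild-type allele. The other, labelled FosKO, is described with the same LysM-Cre driver and both Fos alleles floxed. By that description both genotypes share Cre and deletion is limited to cells of the myeloid lineage. The values are normalised log2 values as deposited, and no read counts were used, so the depth behind each library is unknown, the study giving only a typical yield.

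EGR proteins are zinc finger transcription factors that bind a GC-rich site, and their genes are immediate early genes, transcribed within minutes of a signal without new protein synthesis. In macrophages TLR4 activates the kinase TPL-2 and then ERK1/2, which phosphorylate ternary complex factors bound with SRF at CArG boxes in the promoters of such genes. NAB1 and NAB2 have no DNA-binding domain of their own. They bind an inhibitory domain shared by EGR1, EGR2 and EGR3 and recruit the NuRD chromatin remodelling complex, and Nab2 is known in other cells as a gene that EGR factors induce, which closes a feedback loop.

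On the mm10 build (GRCm38), Egr1 (ENSMUSG00000038418) occupies chromosome 18, plus strand, 34859823 to 34864984. Egr2 (ENSMUSG00000037868) lies on chromosome 10 from 67535475 to 67542188, also on the plus strand, and Egr3 (ENSMUSG00000033730) on the same strand of chromosome 14 from 70077203 to 70082614. Nab1 (ENSMUSG00000002881) lies on chromosome 1 from 52457294 to 52500679 on the minus strand. Nab2 (ENSMUSG00000025402) lies on chromosome 10 from 127660918 to 127668568 on the minus strand, and its annotation overlaps that of Stat6 by 40 bases. Stat6 stood 0.05 to 0.08 higher in FosKO on the log2 scale at the 4 times (adjusted p from 0.0011 to 0.058 in limma), the opposite sign to Nab2.

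The label of the libraries was checked on Fos itself. In the LysM-Cre libraries Fos averaged 11.11, 13.52, 11.15 and 9.52 on the log2 scale at 0, 0.5, 1 and 2 h. In the libraries labelled FosKO it averaged 12.60, 12.75, 12.78 and 12.80 and did not pass the test for a change with LPS at any time, with adjusted p of 0.396, 0.122 and 0.054 in limma. A gene-level value does not show whether the deleted part of Fos was counted, so the Fos value goes against a simple reading of the label at 0, 1 and 2 h and the directions below refer to the libraries as labelled. Fosl1, which encodes the FOS-related factor FRA1, was called lower in the FosKO-labelled libraries at each of the 4 times. Fosb, another gene of that family, was called lower at 0.5 h only. From its RNA-seq of these genotypes, the data read here and so no separate check of the label, the study reports lower Fosl1, Fosl2 and Il10 mRNA in FosKO cells after LPS. It reports higher Ifnb1 mRNA in them from RNA-seq and from qRT-PCR. Lyz2, the locus that holds Cre, stood 4.89 to 5.17 higher in FosKO-labelled libraries over the 4 times, although both genotypes are described as carrying Cre there. The reason for this difference was not tested. All 8 macrophage markers examined, Csf1r and Adgre1 among them, lay between 9.07 and 15.38. The T cell markers Cd3e, Cd3g and Trac and the neutrophil markers Ly6g and Elane were below the filter. Summed over the list, the macrophage markers reached 17.19 to 17.49 in LysM-Cre and 17.17 to 17.59 in FosKO, and the neutrophil markers 5.61 to 6.64 and 5.02 to 5.74. The dendritic cell markers summed to 4.78 to 6.90 and 4.75 to 6.42, and the fibroblast markers to 3.85 to 4.82 and 3.78 to 4.43. The T cell list of 4 genes summed to between 7.59 and 7.90 in LysM-Cre and to more than 7.90 and up to 8.44 in FosKO libraries, nearly all of it Cd4, and the part of these markers in the results was not tested. The 18S ribosomal RNA gene Rn18s-rs5 set 5 libraries apart, at 16.65 to 17.00 against 18.57 to 19.39 in the other 19. The lower set held LysM-Cre replicate 3 at 0.5 h, LysM-Cre replicates 2 and 3 at 1 h, FosKO replicate 1 at 0.5 h and FosKO replicate 1 at 1 h. In bulk RNA, fewer cells of a type and less RNA per cell cannot be told apart.

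Promoter sequence bears on the feedback loop because EGR sites in a Nab gene and CArG boxes in an Egr gene are the elements named above. RefSeq promoter windows on GRCm38.p6, from 250 bases before to 50 after a start, were at hand for Egr2 (5 windows), Nab1 (1) and Nab2 (1), while Egr1 and Egr3 are named only. Both strands were searched for the EGR site GCGNGGGCG, the CRE TGACGTCA, the AP-1 site TGAGTCA or TGACTCA, the ETS core ACCGGAAGT and the CArG box. Of all 32851 windows, 5.55% held the EGR site, 1.79% the CRE, 5.2% the AP-1 site, 1.1% the ETS core and 1.63% the CArG box. For Egr2, 4 of its 5 windows, which overlap in part, held a CArG box, and no other motif matched. The window at the annotated 5′ end of Egr2 (chr10:67535249-67535548, the gene starting at 67535475) held none of the motifs, and the CArG boxes lie before internal starts. The 250 bases before one of these internal starts (chr10:67537619-67537868, plus strand) show the CArG box in capitals and overlap no annotated exon of the gene.
Egr2: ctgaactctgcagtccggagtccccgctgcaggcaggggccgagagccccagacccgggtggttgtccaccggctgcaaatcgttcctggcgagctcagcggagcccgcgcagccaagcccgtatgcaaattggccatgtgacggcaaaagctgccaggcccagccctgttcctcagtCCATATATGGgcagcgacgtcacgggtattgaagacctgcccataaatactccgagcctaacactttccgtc
The Nab1 window held 3 matches of the EGR site. They are printed with 5 bases on either side, the match in capitals, as read on the minus strand 5′ to 3′. The positions are chr1:52500576-52500594, chr1:52500544-52500562 and chr1:52500473-52500491, before the RefSeq start and inside an exon of a longer annotated Nab1 transcript.
Nab1 match 1: gcggcCGCCCACGCcggga
Nab1 match 2: gccgcGCGTGGGCGggagc
Nab1 match 3: gcgggGCGGGGGCGgcgga
The Nab2 window (chr10:127666654-127666953) sits at an internal start and does not reach the annotated 5′ end of Nab2 at 127668568, so that it leaves the sequence around that end unsearched, and none of the letters matched within it. A match describes the sequence and is not a measured binding site.

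LPS raised the 3 Egr transcripts sharply and the Nab transcripts little. At 0.5 h in LysM-Cre, 3 of the 5 members passed the test as higher and 0 as lower, against 7.24% of all tested genes called in that comparison. At 1 h in LysM-Cre all 5 were higher (35.8% of all genes called), and at 2 h 3 were higher with 2 lower (60.8%). Under the FosKO label, 4 members were higher at 0.5 h (5.92% of all genes called), 5 at 1 h (32.6%) and 3 at 2 h (62.1%), with 0 lower. The FosKO count at 0.5 h includes Nab2, whose call was lost with only the groups compared. In LysM-Cre the 2 lower at 2 h include Egr2, whose call was lost in 5 of 6 fits that left out 1 library. The FosKO counts at 1 and 2 h include Nab1, which was not called under quantile normalisation (0.02 and -0.06). Calls rest on limma, with the Benjamini-Hochberg adjusted p over the 13901 genes below 0.05. The comparisons with 0 h in 1 genotype share their 0 h libraries.

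Egr1, the founding EGR factor, was the most strongly induced gene of all 13901 at 0.5 h in both genotypes. At 0 h its log2 value was 9.09, 8.72 and 8.74 in LysM-Cre replicates 1, 2 and 3 and 8.77, 8.52 and 8.63 in FosKO. At 0.5 h it was 14.19, 14.33 and 14.32 in LysM-Cre and 14.18, 14.17 and 14.29 in FosKO. The groups overlapped at both times, with FosKO at the lower end of the range before LPS. By 1 h the values were 11.71, 11.78 and 12.04 in LysM-Cre and 12.65, 12.78 and 12.72 in FosKO. After 2 h they were 9.51, 9.72 and 9.67 against 10.52, 10.51 and 10.78. At 1 and 2 h every FosKO library lay above every LysM-Cre library. The rise over 0 h at 0.5 h was 5.43 in LysM-Cre (SE 0.10, 43.2-fold, adjusted p 1.21e-19) and 5.58 in FosKO (SE 0.10, 47.7-fold, adjusted p 7.38e-20). Folds here are computed back from differences in deposited log2 values, whose transform is not given in the sources used here, so they are approximate as ratios of expression. It then shrank to 3.00 and 0.78 at 1 and 2 h in LysM-Cre and to 4.08 and 1.97 in FosKO, all called. Between the genotypes Egr1 differed by -0.21 at 0 h (SE 0.10, adjusted p 0.109) and by -0.07 at 0.5 h (95% interval -0.27 to 0.14, adjusted p 0.644). It was 0.87 higher in FosKO at 1 h (SE 0.10, 1.83-fold, adjusted p 7.92e-07) and 0.97 higher at 2 h (SE 0.10, 1.96-fold, adjusted p 1.1e-07).

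Egr2, also known as Krox20 and a factor of macrophage and Schwann cell differentiation, was lower in FosKO before LPS and at 0.5 and 2 h. At 0 h it was 10.19, 10.13 and 9.97 in LysM-Cre replicates 1, 2 and 3 and 9.54, 9.43 and 9.54 in FosKO. At 0.5 h the LysM-Cre libraries held 12.59, 12.83 and 12.75 and the FosKO libraries 12.18, 12.28 and 12.27. FosKO lay below LysM-Cre without overlap at both times. At 1 h the values were 12.45, 12.50 and 12.70 against 12.32, 12.47 and 12.41, and here the highest FosKO library passed the lowest LysM-Cre library. By 2 h they had come back to 9.95, 9.93 and 9.92 in LysM-Cre and to 9.72, 9.57 and 9.67 in FosKO, again without overlap. The difference between the genotypes was -0.59 at 0 h (SE 0.07, adjusted p 9.08e-07), -0.48 at 0.5 h (SE 0.07, adjusted p 7.92e-06), -0.15 at 1 h (SE 0.07, adjusted p 0.0891) and -0.29 at 2 h (SE 0.07, adjusted p 0.00169). The 1 h value was called under quantile normalisation (-0.24, adjusted p 0.00771) and without LysM-Cre replicate 1 at 1 h (-0.20, adjusted p 0.043), and leaving out 1 library moved it between -0.20 and -0.08. Egr2 rose by 2.63 at 0.5 h and 2.46 at 1 h in LysM-Cre and by 2.74 and 2.90 in FosKO, all called. At 2 h it stood at -0.16 against 0 h in LysM-Cre (adjusted p 0.046) and at 0.15 in FosKO (adjusted p 0.0666). The LysM-Cre call at 2 h was lost when any 1 library of the groups was left out other than replicate 3 at 0 h, with values of -0.11 to -0.17, and also under either replicate block (adjusted p 0.0539 and 0.0634), with no filter (adjusted p 0.0747), with no trend (adjusted p 0.0606) and with each library centred on its median (-0.13, adjusted p 0.112). The FosKO value at 2 h was called with that centring (0.20, adjusted p 0.0132), with only the groups compared (adjusted p 0.0455), among the high 18S libraries (adjusted p 0.0474) and without FosKO replicate 2 at 2 h (0.19, adjusted p 0.0375).

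Egr3, a family member known for its part in lymphocyte tolerance and muscle spindles, was lower in FosKO at 0.5 and 1 h and higher at 2 h. At 0 h it was 5.69, 5.34 and 5.67 in LysM-Cre replicates 1, 2 and 3 and 5.50, 5.17 and 5.33 in FosKO, with overlap. At 0.5 h the LysM-Cre libraries stood at 8.25, 8.40 and 8.37 and the FosKO libraries at 7.47, 7.37 and 7.32. Every FosKO library was therefore lower at 0.5 h, with a gap of 0.78 between the groups. At 1 h the values were 8.61, 8.66 and 8.61 against 8.21, 8.29 and 8.38, still without overlap. At 2 h the order turned, with 6.82, 6.63 and 6.60 in LysM-Cre and 7.09, 7.04 and 7.16 in FosKO. Egr3 differed by -0.23 at 0 h (SE 0.09, adjusted p 0.0559), -0.95 at 0.5 h (SE 0.09, 1.93-fold lower, adjusted p 6.52e-08), -0.33 at 1 h (SE 0.09, adjusted p 0.007) and 0.41 at 2 h (SE 0.09, 1.33-fold higher, adjusted p 0.000941). The 0 h value was called with the replicate block (-0.23, adjusted p 0.0496) and without LysM-Cre replicate 2 (-0.34, adjusted p 0.00467) or FosKO replicate 1 (-0.31, adjusted p 0.0144) of that time. Among the high 18S libraries, with 1 LysM-Cre library at 1 h, the 1 h value of Egr3 was -0.27 and not called. Over 0 h Egr3 rose by 2.77, 3.06 and 1.12 at 0.5, 1 and 2 h in LysM-Cre and by 2.05, 2.96 and 1.76 in FosKO, all called. Its highest mean came at 1 h in both genotypes, whereas Egr1 was highest at 0.5 h.

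**Figure D1:**
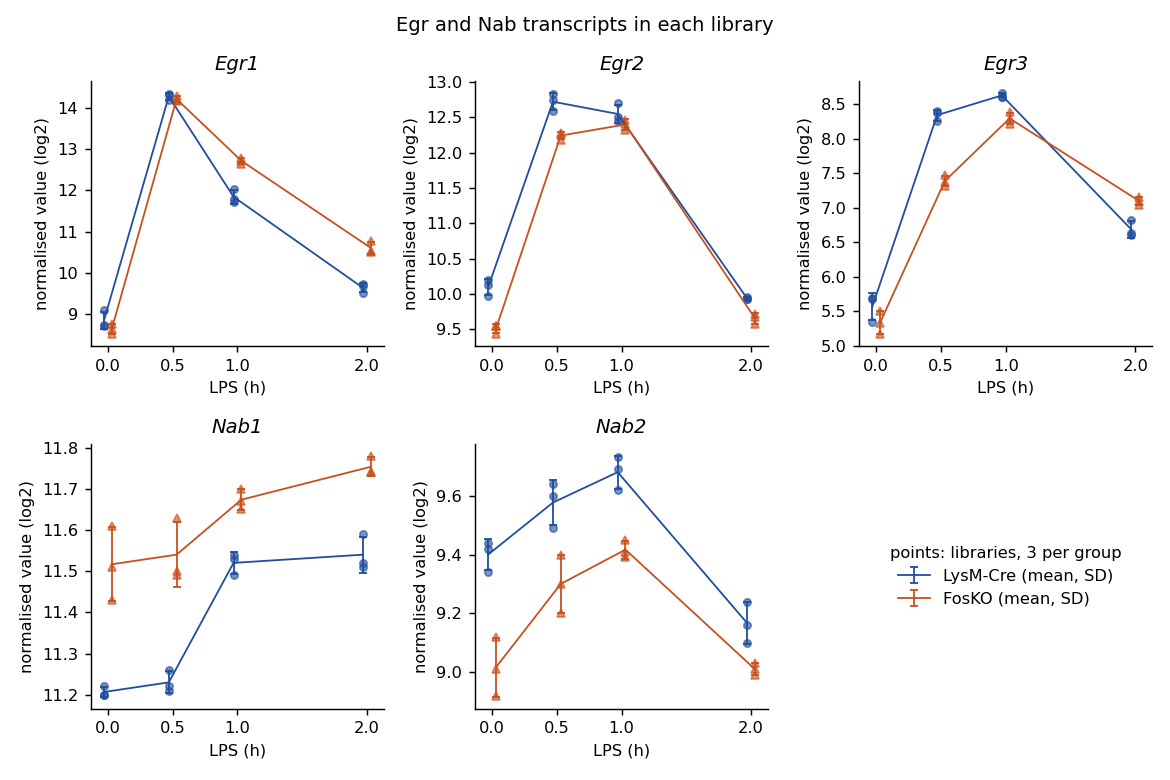
Normalised log2 value of each member against hours of LPS, with 1 point per library (circles LysM-Cre, triangles FosKO) and lines through the group means with SD bars (n = 3), each panel on its own axis. Egr1 separates at 1 h (LysM-Cre 11.71 to 12.04, FosKO 12.65 to 12.78), Egr3 crosses between 1 and 2 h, and FosKO lies above for Nab1 and below for Nab2 at every time.

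Nab1, a corepressor of the EGR factors, was higher in FosKO at all 4 times by small steps. At 0 h it was 11.20, 11.20 and 11.22 in LysM-Cre replicates 1, 2 and 3 and 11.43, 11.51 and 11.61 in FosKO. At 0.5 h it was 11.21, 11.22 and 11.26 against 11.49, 11.50 and 11.63. No FosKO library overlapped with LysM-Cre at either time. At 1 h the values were 11.49, 11.54 and 11.53 in LysM-Cre and 11.70, 11.65 and 11.67 in FosKO. At 2 h the LysM-Cre libraries stood at 11.52, 11.51 and 11.59 and the FosKO libraries at 11.78, 11.74 and 11.74. The groups stayed apart, with gaps of 0.11 and 0.15. The difference was 0.31 at 0 h (SE 0.04, 1.24-fold, adjusted p 2.33e-06), 0.31 at 0.5 h (adjusted p 1.39e-06), 0.15 at 1 h (adjusted p 0.00381) and 0.21 at 2 h (adjusted p 0.000116). Among the high 18S libraries, with 1 LysM-Cre library at 1 h, the 1 h difference was 0.17 and not called. In LysM-Cre, Nab1 stood 0.02 over 0 h at 0.5 h (adjusted p 0.854) and rose by 0.31 after 1 h and 0.33 after 2 h. In FosKO it was 0.02 over 0 h at 0.5 h (adjusted p 0.783), 0.16 higher at 1 h and 0.23 higher at 2 h, but quantile normalisation turned the 2 h value to -0.06 (adjusted p 0.0823) and reduced the 1 h value to 0.02. The call of the 1 h rise in FosKO was also lost with only the groups compared (0.16, adjusted p 0.0561).

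Nab2, the corepressor known in other cells as an EGR-induced gene, was lower in FosKO at all 4 times. At 0 h it was 9.44, 9.42 and 9.34 in LysM-Cre replicates 1, 2 and 3 and 9.12, 9.01 and 8.92 in FosKO. At 0.5 h it was 9.49, 9.60 and 9.64 against 9.40, 9.20 and 9.30. Each FosKO library was below each LysM-Cre library, by the small gap of 0.09 at 0.5 h. At 1 h the values were 9.62, 9.69 and 9.73 against 9.41, 9.39 and 9.45. At 2 h they were 9.10, 9.24 and 9.16 against 8.99, 9.03 and 9.01, again without overlap. The difference was -0.38 at 0 h (SE 0.06, adjusted p 1.54e-05), -0.28 at 0.5 h (SE 0.06, adjusted p 0.000371), -0.27 at 1 h (SE 0.06, adjusted p 0.000775) and -0.15 at 2 h (SE 0.06, adjusted p 0.0278). Among the high 18S libraries, with 1 LysM-Cre library at 1 h, the 1 h difference was -0.20 and not called. The 2 h call did not survive leaving out replicate 2 (-0.12) or 3 (-0.16) of LysM-Cre or 1 (-0.15) or 3 (-0.16) of FosKO, and it was also lost with each library centred on its median (-0.12, adjusted p 0.0777). Nab2 was higher than at 0 h by 0.28 at 1 h in LysM-Cre (adjusted p 0.000398) and, in FosKO, by 0.28 after 0.5 h (adjusted p 0.00208) and 0.40 after 1 h (adjusted p 7.5e-06). The FosKO call at 0.5 h was lost in a fit of only the groups compared (0.28, adjusted p 0.156). At 0.5 h in LysM-Cre it stood at 0.18 (adjusted p 0.0554), which was called with the replicate block within genotype (adjusted p 0.0433) and without replicate 1 at 0.5 h (0.22, adjusted p 0.0279). After 2 h it was 0.23 lower than at 0 h in LysM-Cre (adjusted p 0.000956) and at -0.01 in FosKO (adjusted p 0.933).

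Set side by side, FosKO against LysM-Cre called 1 member higher (Nab1) and 2 lower (Egr2, Nab2) at 0 h, where 35.4% of all genes were called. At 0.5 h there was 1 higher with 3 lower (40.9% of all genes called), at 1 h 2 were higher and 2 lower (33.9%), and at 2 h 3 were higher and 2 lower (44.6%). Among the high 18S libraries, which hold 1 LysM-Cre library at 1 h, the 1 h calls of Egr3, Nab1 and Nab2 were lost. The 2 h call of Nab2 was lost in some fits that left out 1 library, as given above. The 2 Nab transcripts differed in opposite directions at every time. The median over all tested genes was 0.00 in each of these comparisons. Since the 4 times use separate libraries, the genotype values at different times are measured on different libraries, although nothing in the labels states whether the libraries of 1 replicate number share an animal. The p-values measure the spread between the libraries, described only as biological replicates.

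**Figure D2:**
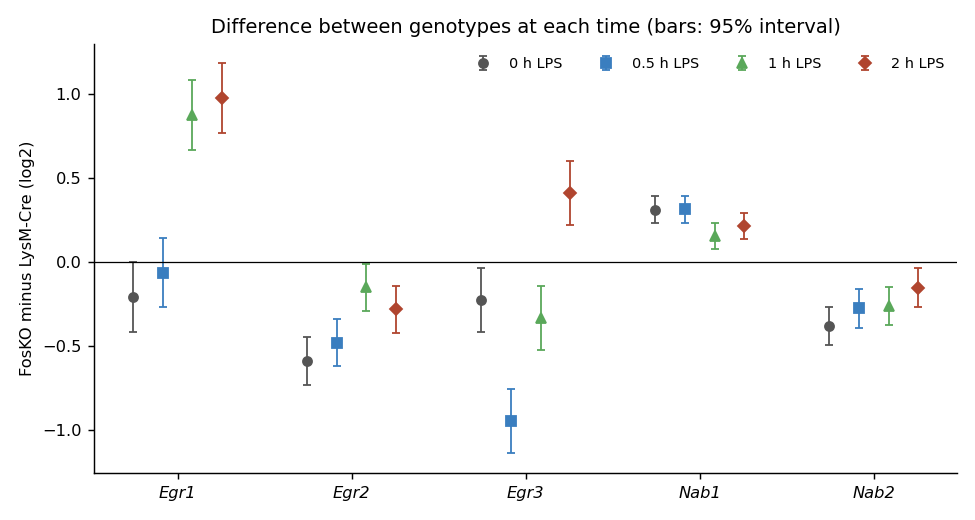
Difference between FosKO and LysM-Cre in log2 units (y axis) for each member, with 1 marker per LPS time and bars for the 95% interval of the limma fit over 24 libraries. Egr1 moves from -0.07 at 0.5 h to 0.97 at 2 h and Egr3 from -0.95 to 0.41, while Nab1 stays above 0 and Nab2 below it.

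After the first 0.5 h Egr1 fell less in FosKO, and Egr3 fell less from 1 to 2 h. From 0.5 to 1 h, 2 members were higher and 1 lower in LysM-Cre (26.8% of all genes called), and likewise in FosKO (27.5%). Over that step Egr1 fell by 2.44 in the control and fell by 1.50 in FosKO, and the difference of 0.94 was called (SE 0.14, adjusted p 0.000644). Egr3 was still rising over the same step, by 0.29 in LysM-Cre (adjusted p 0.0221) and 0.91 in FosKO (adjusted p 1.24e-07). The 2 steps of Egr3 differed by 0.62 (SE 0.13, adjusted p 0.0172), a call not made among the 19 libraries of high 18S (0.70, adjusted p 0.236) nor without replicate 2 of LysM-Cre (0.59) or 3 of FosKO (0.59) at 0.5 h or 3 of FosKO at 1 h (0.57). The LysM-Cre rise of Egr3 was likewise not called among those 19 (0.28, adjusted p 0.28) nor without LysM-Cre replicate 1 at 0.5 h (0.24) or 2 at 1 h (0.27). Nab1 rose by 0.29 in LysM-Cre and 0.13 in FosKO, and Egr2 stood at -0.17 and 0.16, neither called. The LysM-Cre value of Egr2 was called under quantile normalisation (-0.30, adjusted p 0.00118) and without LysM-Cre replicate 1 at 0.5 h or 3 at 1 h (-0.24 each), and leaving out either of them also brought a call for the difference between the genotypes (0.40 each). The genotype difference of Nab1 in this step was called under quantile normalisation (-0.18, adjusted p 0.0318). The FosKO rise of Nab1 was not called under quantile normalisation (0.05, adjusted p 0.223), with only the groups compared (0.13, adjusted p 0.0792), among the high 18S libraries (0.10, adjusted p 0.193) or without FosKO replicate 1 or 2 at 0.5 h (0.11 each). Both genotype differences called in this step, of 5 members, stand against 1.06% of all genes.

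From 1 to 2 h, 4 members fell in LysM-Cre (52.3% of all genes called) and 4 in FosKO (50.7%), while Nab1 was not called in either. Egr2 fell by 2.62 in LysM-Cre and fell by 2.75 in FosKO, the largest fall of all 13901 genes in FosKO over that step. Egr1 fell by 2.21 in LysM-Cre and fell by 2.11 in FosKO, and the difference between those falls was 0.10 (95% interval -0.19 to 0.39, adjusted p 0.74). Egr3 fell by 1.94 in LysM-Cre and fell by 1.20 in FosKO, a difference of 0.74 (SE 0.13, adjusted p 0.000625). It was the 1 member called for a difference in this step, where 11.6% of all genes were called. Nab2 fell by 0.51 in LysM-Cre and fell by 0.40 in FosKO. Nab1 stood at 0.02 (adjusted p 0.729) and 0.08 (adjusted p 0.098), but quantile normalisation turned both to a called fall of -0.08 (adjusted p 0.0209 and 0.0249). In FosKO it was instead called higher with each library centred on its median (0.11, adjusted p 0.0286) and with only the groups compared (0.08, adjusted p 0.0434), so its direction over this step depended on the scaling.

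The change with LPS over 0 h was then compared between the genotypes, as the FosKO change minus the LysM-Cre change. At 0.5 h 1 member was called, Egr3 at -0.72 (SE 0.13, adjusted p 0.0199), among only 16 genes or 0.115% of all. At 1 h 2 were called, Egr1 at 1.08 (SE 0.14, adjusted p 9.73e-05) and Egr2 at 0.44 (SE 0.10, adjusted p 0.0205), where 1.22% of all genes were. At 2 h 3 were called against 15.0% of all genes, namely Egr1 at 1.18 (SE 0.14, adjusted p 5.7e-06), Egr3 at 0.64 (SE 0.13, adjusted p 0.00161) and Egr2 at 0.31 (SE 0.10, adjusted p 0.0342). Neither Nab gene was called at any time in this fit. Nab2 came nearest, at 0.23 at 2 h (95% interval 0.07 to 0.39, adjusted p 0.0542), and it was called with the replicate block within genotype (0.23, adjusted p 0.0406), under quantile normalisation (0.27), with libraries centred on the median (0.25), with the 18S set as a term (0.23) and in 3 of 12 fits that left out 1 library (LysM-Cre 0 h replicate 3, 0.26, LysM-Cre 2 h replicate 2, 0.26, and FosKO 0 h replicate 1, 0.28). Nab1 stood at -0.16 at 1 h (95% interval -0.27 to -0.05, adjusted p 0.281) and at -0.10 at 2 h (adjusted p 0.257), and under quantile normalisation both were called, at -0.19 (adjusted p 0.0166) and -0.19 (adjusted p 0.00343). The Egr1 calls at 1 and 2 h and the Egr3 call at 2 h were kept in every fit that left out 1 library. The Egr3 value at 0.5 h lost its call in 7 of 12 such fits, with values from -0.80 to -0.61 over the 12. Egr2 lost it in 6 of 12 at 1 h (0.39 to 0.51) and in 8 of 12 at 2 h (0.26 to 0.37). Fits of only the groups compared also lost Egr3 at 0.5 h (adjusted p 0.425) and Egr2 at 1 h (adjusted p 0.0894), the high 18S libraries Egr3 at 0.5 h (adjusted p 0.234), and fits with no filter or no trend Egr2 at 2 h (adjusted p 0.0576 and 0.0501).

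Egr mRNA was set against Nab2 mRNA within each library, a difference of log2 values that the scaling of a library cannot move. In LysM-Cre, Egr1 minus Nab2 averaged -0.55, 4.70, 2.16 and 0.47 at 0, 0.5, 1 and 2 h. In FosKO it averaged -0.38, 4.91, 3.30 and 1.59. The FosKO libraries ranged from 4.77 to 4.99, from 3.24 to 3.39 and from 1.48 to 1.77 after LPS, each range above the highest LysM-Cre library of its time (4.73, 2.31 and 0.51). Over the 18 LPS libraries FosKO was 0.83 higher on average (0.21, 1.14 and 1.13 at the 3 times). The two-sided exact permutation test within times gave p = 0.00025, the smallest that 8000 permutations can give, or 0.00075 after adjustment over 3 pairs. It treats the libraries of the 3 times as independent, which the labels do not state. If a replicate number marked 1 animal over the times, the smallest two-sided exact p for 3 against 3 would be 0.1. Egr2 minus Nab2 differed by -0.07 (exact permutation p = 0.21, adjusted 0.315), with -0.20, 0.11 and -0.13 at the 3 times. Egr3 minus Nab2 differed by -0.06 on average (exact permutation p = 0.663, adjusted 0.663) over values of -0.67, -0.07 and 0.57 at the 3 times, which changed sign.

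**Figure D3:**
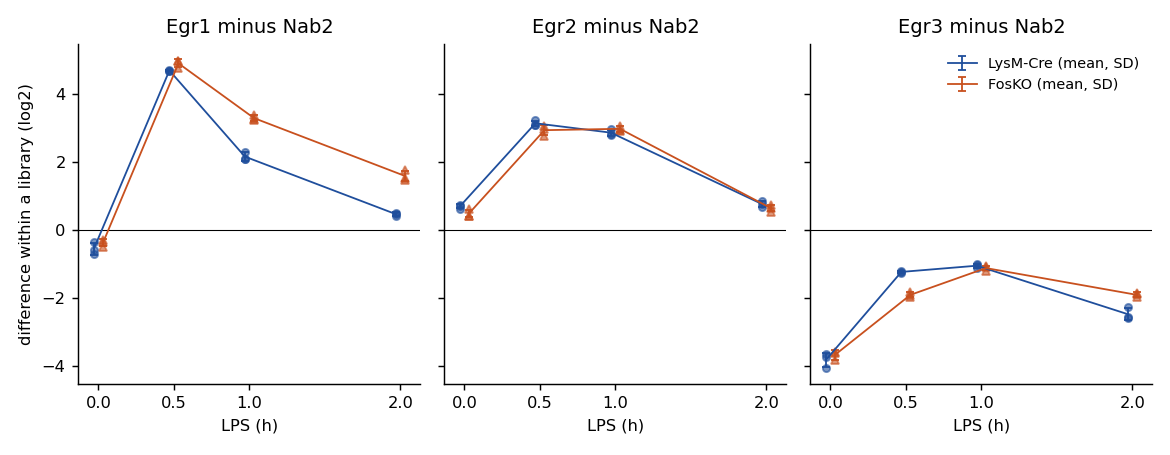
Difference between the log2 values of each Egr gene and Nab2 in the same library (y axis) against hours of LPS, with points for libraries and lines for group means with SD (n = 3). For Egr1 the FosKO mean stays at 3.30 at 1 h and 1.59 at 2 h against 2.16 and 0.47 in LysM-Cre, whereas for Egr2 the genotypes lie close together.

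Levels were compared between genes on the linear scale per kb of annotated exon. These levels are approximate for the same reason as the folds. They also depend on the length used, the union of all annotated exons of a gene (4484 bases for Egr1). A gene expressed as a shorter transcript would have a higher value per kb than given, so the order between genes is approximate too. At 0 h in LysM-Cre the order was Nab1 (577, SD 4), Egr2 (323, SD 25), Nab2 (230, SD 9), Egr1 (104, SD 16) and Egr3 (10.8, SD 1.4), with no overlap between neighbours. At 0.5 h Egr1 led with 4447 (SD 234), followed by Egr2 (1995), Nab1 (586), Nab2 (260) and Egr3 (73.5), each range apart from the next. The EGR transcripts thus passed from less abundant than Nab1 to more abundant, apart from Egr3, which stayed lowest in all 8 groups. At 1 h in LysM-Cre Egr2 led with 1774 (SD 165) over Egr1 with 824 (SD 101), while in FosKO Egr2 with 1592 (1508 to 1668) and Egr1 with 1503 (1432 to 1568) overlapped. By 2 h Nab1 led again in both genotypes, with 726 (SD 21) in LysM-Cre and 840 (SD 13) in FosKO. There Egr1 stood at 177 (162 to 188) in LysM-Cre, overlapping with Nab2 at 196 (187 to 205). In FosKO Egr1 stood at 349 (324 to 393), above both Egr2 at 237 (223 to 248) and Nab2 at 176 (173 to 178).

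**Figure D4:**
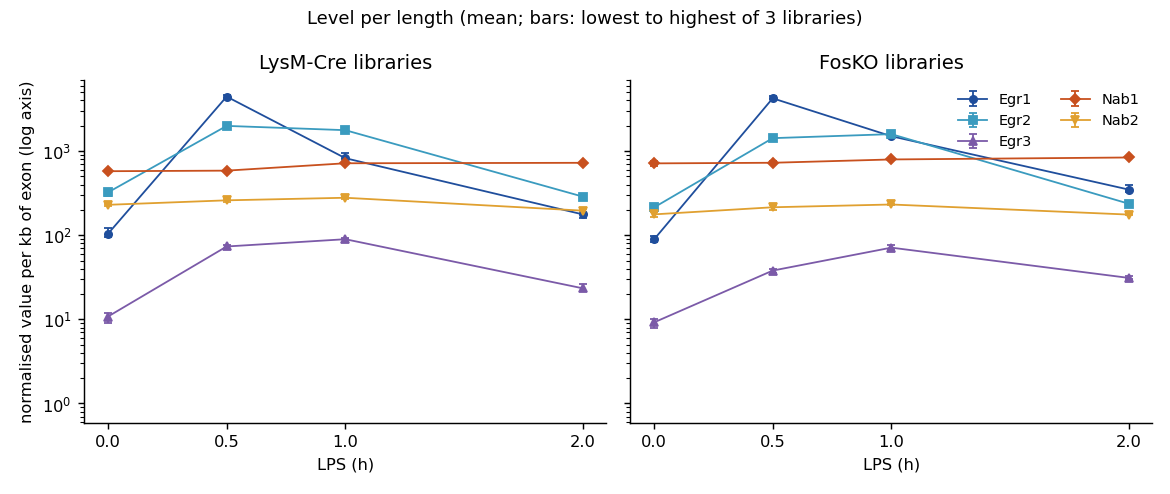
Normalised linear value per kb of exon (log axis) against hours of LPS for the 5 members, LysM-Cre on the left and FosKO on the right, as means with bars from the lowest to the highest of 3 libraries. Egr1 and Egr2 cross Nab1 upward by 0.5 h and downward by 2 h, and Egr3 stays lowest in all 8 groups.

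Because the libraries with low 18S fell at 0.5 and 1 h, the genotype difference was also read within each set. At 0.5 h (2 against 2 libraries in the high set, 1 against 1 in the low) Egr3 differed by -0.98 and -0.90, Egr2 by -0.44 and -0.57, Nab1 by 0.35 and 0.23 and Nab2 by -0.30 and -0.24. At 1 h the high set held 2 FosKO libraries and 1 LysM-Cre library and the low set 1 and 2. There Egr1 differed by 1.04 and 0.74, Egr3 by -0.27 and -0.43, Nab1 by 0.17 and 0.16 and Nab2 by -0.20 and -0.30. The signs were the same in both sets for these genes, and Egr2 at 1 h was -0.02 (high set) and -0.28 (low set). In a fit of the 19 high libraries alone, the 1 h calls of Egr3 (adjusted p 0.23), Nab1 (adjusted p 0.0558) and Nab2 (adjusted p 0.0878) were lost and that of Egr1 was kept. The lone LysM-Cre library at 1 h is assumed there to vary like the other groups, from which the spread comes.

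Genes around the family were examined as lists, each a description. Of the pathway upstream of the Egr genes, from TPL-2 to the ternary complex factors and SRF (14 genes, all tested), 3, 3, 2 and 4 were higher and 2, 2, 2 and 2 lower in FosKO at 0, 0.5, 1 and 2 h, against 35.4%, 40.9%, 33.9% and 44.6% of all genes called in either direction. Its median stood between 0.00 and 0.01, as for all genes (0.00). Map3k8, which encodes TPL-2, was higher in FosKO by 0.31, 0.34, 0.50 and 0.27 (adjusted p 0.000218, 6.26e-05, 9.35e-07 and 0.000541). Mkl1, an SRF coactivator, was higher by 0.16, 0.15, 0.23 and 0.36, all called. Of 18 genes known as EGR1 targets in other cells, 6, 6, 4 and 7 were higher and 6 lower at each of the 4 times (35.4%, 40.9%, 33.9% and 44.6% of all genes called), so the list had no single direction. Mmp14, a membrane-bound metalloproteinase, was higher by 1.67, 1.79, 1.16 and 0.50, and Plaur, the urokinase receptor, was lower by values of -0.27, -0.40, -0.55 and -0.27, all called. In the change with LPS the target list had 0 members called at 0.5 h (0.115% of all genes called), 4 lower in FosKO at 1 h (Hbegf, Icam1, Mcl1 and Plaur, against 1.22%), and 3 higher and 6 lower at 2 h (15.0%).

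Of 13 NuRD subunits, 2, 2, 2 and 5 were higher and 2, 4, 3 and 3 lower in FosKO at the 4 times (35.4%, 40.9%, 33.9% and 44.6% of all genes called), with medians from -0.07 to 0.05. Gatad2a, a scaffold subunit, was higher by 0.27, 0.34, 0.30 and 0.13. Hdac2, a histone deacetylase, stood at -0.07 at 0 h (adjusted p 0.185) and was lower at 0.5, 1 and 2 h by values of -0.14, -0.13 and -0.19. Among 21 other immediate early genes, which include Fos itself, 5, 4, 9 and 11 were higher and 6, 13, 5 and 5 lower in FosKO at the 4 times, against the same shares of all genes. The median of that list was -0.06, -0.23, 0.19 and 0.16, and 0.00 over all genes at each time. Dusp5, a phosphatase that inactivates ERK, differed by -0.99 already before LPS and by -1.86, -2.17 and -0.70 at 0.5, 1 and 2 h, and Atf3, a stress-induced bZIP factor, was higher by 0.21, 0.19, 0.72 and 0.44 at the 4 times. Of the change from 0.5 to 1 h, 7 of the 21 were called with a higher value in FosKO and 0 were called with a lower one (1.06% of all genes called). The 7 were Btg2, Atf3, Zfp36, Jun, Ier2, Klf2 and Fos itself, the targeted gene. The other contrasts between genotypes were less one-sided or went the other way. In the change over 0 h, 0, 7 and 8 of the list were higher and 4, 3 and 1 lower in FosKO at 0.5, 1 and 2 h. All genes called there were 0.115%, 1.22% and 15.0%. From 1 to 2 h, 6 were higher and 3 lower (11.6%). Egr4, the remaining EGR gene in the table, lay between -0.34 and 0.06, below the filter.

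Likeness over the 24 libraries was measured as Pearson's r against 10563 genes whose linear mean reached 50. It is a description in which all points share the time course and the libraries. The genes most like Egr1 were Ier2 (0.98), Zfp36 (0.97), Dusp1 (0.96), Btg2 (0.96) and Plk2 (0.93). Egr2 was most like Nr4a1 (0.98), Ppp1r10 (0.96), Btg2, Dusp1 and Gtf2ird2 (0.95 each). For Egr3 they were Nfkbid (0.98), Phlda1 (0.98), Id3 (0.97), Junb (0.97) and Cep135 (0.96). Nab2 was most like Fosl2 (0.95) and Pdgfb (0.94), then Tmcc2 (0.90), Tubb2a (0.90) and Dpep3 (0.89), and Nab1 like Mocs1, Tax1bp1 and Rab7 (0.97 each), Stx3 and Hspa9 (0.96 each). Among the members, Egr1 and Egr2 had an r of 0.89, Egr2 and Egr3 of 0.86, and Egr1 and Egr3 of 0.81. Nab2 was closer to Egr2 (0.81) than to Egr3 (0.66) or Egr1 (0.53), while Nab1 had 0.00 with Egr1 and -0.47 with Nab2.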

How the data were processed

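RNA from 24 BMDM libraries was prepared by the authors with TruSeq, sequenced as single-end strand-specific reads, and counted with STAR 2.5.2a and RSEM 1.2.31 on mm10, with DESeq2 for normalisation (1.16.1 in the submitters' processing notes). The deposited values are normalised log2 values from -2.22 to 19.39, with the transform not given in the sources used here. No counts were used, so no count test, depth or counting interval could be given. Ensembl identifiers matched GENCODE M21 for 99.6% of genes.

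Genes at 5 or more on the linear scale in at least 3 libraries (13901) were fitted with limma 3.58.1 (R 4.3.3), with 8 group means, empirical Bayes with a trend, 16 residual degrees of freedom, and Benjamini-Hochberg adjustment over all tested genes in each of 19 comparisons. The fit was tested on simulated data. The Egr minus Nab2 differences used an exact permutation test within LPS times. Named were the members, the 5 genes most like each, and the 2 genes of each list with the largest absolute t at 1 h. Any further gene named from a list was chosen after its values were seen. The members and lists were chosen with earlier results of these data known. Alternatives were a pseudocount of 1, no filter, quantile normalisation, centring on the median, fewer samples per fit, no trend, replicate blocks, the 18S sets, and leaving out each library. One list of cell type markers is not reported here.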

Additional observations from a re-analysis of the deposited data

Results flagged for a closer look

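The LPS response differed between the genotypes, by the interaction contrasts of limma with Benjamini-Hochberg adjustment, in 9 values of 3 genes. Of all tested genes, 0.115%, 1.22% and 15.0% were called for the response at 0.5, 1 and 2 h. For the steps from 0.5 to 1 h and from 1 to 2 h the shares were 1.06% and 11.6%. Egr1 was the clearest, with a FosKO minus LysM-Cre difference of 1.08 at 1 h (adjusted p 9.73e-05), 1.18 at 2 h (adjusted p 5.7e-06) and 0.94 in the step from 0.5 to 1 h (adjusted p 0.000644). Egr3 had the opposite sign early and the same sign later, at -0.72 at 0.5 h (adjusted p 0.0199) and 0.64 at 2 h (adjusted p 0.00161). Its step from 0.5 to 1 h differed by 0.62 (adjusted p 0.0172) and its step from 1 to 2 h by 0.74 (adjusted p 0.000625). Egr2 differed by 0.44 at 1 h (adjusted p 0.0205) and 0.31 at 2 h (adjusted p 0.0342). The Egr2 level itself was not higher in FosKO, at -0.59 before LPS and at -0.15 and -0.29 at 1 and 2 h. These directions rest on the library labels, which the Fos value goes against at 0, 1 and 2 h. Fosl1 was called lower in the FosKO-labelled libraries at all 4 times and Fosb at 0.5 h only. Fos itself was lower in the FosKO-labelled libraries at 0.5 h (-0.77, adjusted p 5.93e-07 in limma).

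The Egr3 values at 0.5 h and in the step from 0.5 to 1 h were not called in the 19 high 18S libraries alone (-0.75, adjusted p 0.234, and 0.70, adjusted p 0.236). With only the groups compared, the calls of Egr3 at 0.5 h (-0.72, adjusted p 0.425) and Egr2 at 1 h (0.44, adjusted p 0.0894) were lost, and Egr2 at 2 h lost its call with no filter (0.31, adjusted p 0.0576) and with no trend (0.31, adjusted p 0.0501). Leaving out, at 0.5 h, LysM-Cre replicate 2 or FosKO replicate 3 (0.59 each), or, at 1 h, FosKO replicate 3 (0.57), also removed the call of that step. For Egr3 at 0.5 h the call was removed by leaving out any of 7 libraries, which were, from the 0 h groups, LysM-Cre 2 (-0.61) and FosKO 1 and 3 (-0.64 and -0.72), and, from the 0.5 h groups, LysM-Cre 2 and 3 (-0.69 and -0.71) and FosKO 2 and 3 (-0.71 and -0.69), the digit giving the replicate. For Egr2 at 1 h it was removed by leaving out, from the 0 h groups, LysM-Cre 1 or 2 (0.39 and 0.43) or FosKO 2 (0.40), and, from the 1 h groups, LysM-Cre 1 or 2 (0.39 and 0.41) or FosKO 2 (0.41). For Egr2 at 2 h these were, from the 0 h groups, LysM-Cre 1 or 2 (0.26 and 0.29) or FosKO 2 (0.27), and, from the 2 h groups, each LysM-Cre library (0.30 to 0.32) and FosKO 1 or 3 (0.27 and 0.30).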

How the results depend on the processing

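Of 98 member values, 71 kept their call under every alternative run for them, the genotype differences of Egr1 at 1 and 2 h among them, and 27 did not. A change of sign was counted only for values called in the main fit or in the alternative. Small values that were not called in either could change sign and still count as kept. The replicate block within genotype was not run for FosKO against LysM-Cre at a single time. It was run for the differences between genotypes in the LPS response and in the steps. The depth of each library is unknown and 3 libraries per group limit the precision. The cause of each change was not tested. Without the filter, Egr2 lost its LysM-Cre call at 2 h (-0.16, adjusted p 0.0747) and its difference in response at 2 h (0.31, adjusted p 0.0576), and without the trend likewise (-0.16, 0.0606, and 0.31, 0.0501). Under quantile normalisation Nab1 turned to -0.06 at 2 h in FosKO and to -0.08 from 1 to 2 h in both genotypes, and lost its call at 1 h (0.02) and from 0.5 to 1 h (0.05) in FosKO. It gained the difference in response at 1 and 2 h (-0.19 each) and in the step from 0.5 to 1 h (-0.18), as did Nab2 in response at 2 h (0.27) and Egr2 between genotypes at 1 h (-0.24) and from 0.5 to 1 h in LysM-Cre (-0.30). With each library centred on its median, Nab2 between genotypes at 2 h (-0.12) and Egr2 at 2 h in LysM-Cre (-0.13) were lost, and Egr2 at 2 h in FosKO (0.20), Nab2 in response at 2 h (0.25) and Nab1 from 1 to 2 h in FosKO (0.11) were gained. In fits of only the groups compared, lost were Nab2 at 0.5 h (0.28), Nab1 at 1 h (0.16) and Nab1 from 0.5 to 1 h (0.13) in FosKO, and the differences in response of Egr3 at 0.5 h (-0.72, adjusted p 0.425) and Egr2 at 1 h (0.44, adjusted p 0.0894), and gained were Egr2 at 2 h (0.15) and Nab1 from 1 to 2 h (0.08) in FosKO. The labels do not say that a replicate number marks a shared animal or day. Pairs of libraries were correlated over all tested genes after the group mean of each gene was subtracted. Across genotypes same-numbered libraries of 1 time had r from -0.53 to 0.31 (2 of 12 over 0.1). Those of other numbers had r from -0.47 to 0.63 (8 of 24 over 0.1). Across times within a genotype 12 of 36 same-numbered pairs were over 0.1 (median 0.06), against 4 of 72 of other numbers (median -0.03), a hint from the data and not the design that numbers run together in part. The replicate block changed 2 of 95 calls, Egr3 at 0 h gained (-0.23, adjusted p 0.0496) and Egr2 at 2 h in LysM-Cre lost (-0.16, adjusted p 0.0539). The replicate block within genotype changed 3 of 75, Nab2 at 0.5 h in LysM-Cre (0.18) and in response at 2 h (0.23) gained and Egr2 at 2 h in LysM-Cre (-0.16) lost. With the 18S set as a term, Nab2 in response at 2 h was gained (0.23). In the 19 high 18S libraries, lost were the 1 h genotype calls of Egr3 (-0.27), Nab1 (0.17) and Nab2 (-0.20), Egr3 in response at 0.5 h (-0.75), Egr3 from 0.5 to 1 h in LysM-Cre (0.28) and its difference (0.70), and Nab1 from 0.5 to 1 h in FosKO (0.10), and Egr2 at 2 h in FosKO was gained (0.15). Leaving out 1 library changed calls of Egr2 at 2 h in LysM-Cre (-0.22 to -0.11) and in FosKO (0.11 to 0.19), Egr2 between genotypes at 1 h (-0.20 to -0.08), Egr2 from 0.5 to 1 h in LysM-Cre (-0.24 to -0.12) and its difference (0.27 to 0.40), Egr2 in response at 1 h (0.39 to 0.51) and 2 h (0.26 to 0.37), Egr3 between genotypes at 0 h (-0.34 to -0.15), Egr3 in response at 0.5 h (-0.80 to -0.61), Egr3 from 0.5 to 1 h in LysM-Cre (0.24 to 0.32) and its difference (0.57 to 0.66), Nab1 from 0.5 to 1 h in FosKO (0.11 to 0.18) and Nab2 between genotypes at 2 h (-0.19 to -0.12), in response at 2 h (0.18 to 0.28), at 0.5 h in LysM-Cre (0.15 to 0.22) and from 0.5 to 1 h in FosKO (0.06 to 0.16). The number of all genes called for a difference in response at 0.5 h went from 16 to 26 (quantile), 6 (only the groups compared), 25 (block within genotype) or 9 (high 18S), and to 10 or 9 without LysM-Cre replicate 2 or 3 at 0.5 h, that at 1 h from 169 to 112 or 93, and that of the step from 0.5 to 1 h from 147 to 75, 264 or 59, and to 96 without LysM-Cre replicate 2 at 0.5 h. Only the groups compared gave 301 for 823 genes at 0.5 h in FosKO (542 without FosKO replicate 3 at 0.5 h) and 2471 for 3819 from 0.5 to 1 h in FosKO. High 18S libraries gave 2994 for 4708 (genotype at 1 h), 3009 for 4970 (LysM-Cre at 1 h), 2010 for 3725 (LysM-Cre, 0.5 to 1 h) and 611 for 1619 (difference from 1 to 2 h).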
